A study of Mus musculus with 354 samples.

Results

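The plasminogen activator system was examined through 5 genes of the 55367 counted in single supporting cells (SCs) of the neonatal mouse cochlea. These were *Serpinb2*, *Serpine2*, *Plau*, *Plaur* and *Plat*, found by their symbols in the counts of each cell. *Serpinb2* was chosen by its difference between the genotypes in these same cells, so its levels are given as a description without a test, and the other 4 genes were chosen by their role around it. CA-ERBB2 pups carried *TetON-CAERBB2*, a doxycycline-inducible transgene for a constitutively active ERBB2 receptor, and Control pups were their littermates that lacked it. Both genotypes carried *Fgfr3-iCre*, a tamoxifen-inducible recombinase under the *Fgfr3* promoter, together with the *ROSA-floxed-rtTA/GFP* allele, so that GFP marked the pillar and Deiters cells, and some neighbouring cell types, in which the promoter was active. Tamoxifen was given at 75 mg/kg on postnatal days P0 and P1 and doxycycline at 100 mg/kg on P2, and cells were collected at P3. The labels do not say whether Control pups also received doxycycline. GFP-positive cells of several pups of a genotype were pooled for each sort, and each genotype gave 59 cells on each of 3 plates. Plates, and not cells, were treated as replicates.

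Plasminogen is a circulating zymogen that is cut to the protease plasmin by either of 2 activators, the urokinase type (PLAU, uPA) and the tissue type (PLAT, tPA). Urokinase acts mostly at the cell surface, where it is held by its receptor PLAUR (uPAR). Serpins hold the system in check: plasminogen activator inhibitor type 2, the product of *Serpinb2*, inhibits urokinase and to a lesser degree the tissue type, and it also stays inside the cell in large part. Protease nexin-1, the product of *Serpine2*, inhibits thrombin, both activators and plasmin at the cell surface. Plasmin degrades fibrin and other matrix proteins and can activate matrix metalloproteinases.

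*Serpinb2* (ENSMUSG00000062345.10) lies on the plus strand of chromosome 1 at chr1:107511423-107535478 in GRCm38. It overlaps *Serpinb10*, a polymorphic pseudogene on the same strand, and *Serpinb10* held 1 count in all. *Serpine2* lies on the minus strand at chr1:79794197-79861180, *Plat* on the plus strand at chr8:22757727-22782844, *Plau* on the plus strand at chr14:20836660-20843385 and *Plaur* on the plus strand at chr7:24462484-24475968. All 5 are protein-coding genes. Promoter windows from RefSeq (GRCm38.p6), which run from 250 bases before to 50 bases after a start site, were at hand for *Serpinb2*, *Serpine2* and *Plaur*. The windows were searched on both strands for TGANTCA (the AP-1 site), TGACGTCA (the cAMP response element), TATAAA and AGGAAG (an ETS core), which do not overlap one another in the matches given here. The AP-1 letters occurred in the windows of *Serpinb2* and *Plaur* and not in that of *Serpine2*, beside 7.81% of 32851 promoter windows of the same length. The *Serpine2* window lay at chr1:79858616-79858915, inside the span of the gene and not at the outer start given above. The 120 bases before each start site are shown for the inhibitor and the receptor because both held these letters, which are in capitals.
Serpinb2, chr1:107511303-107511422, plus strand: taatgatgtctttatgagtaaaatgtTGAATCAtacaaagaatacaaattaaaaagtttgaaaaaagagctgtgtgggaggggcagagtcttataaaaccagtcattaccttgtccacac
Plaur, chr7:24462363-24462482, plus strand: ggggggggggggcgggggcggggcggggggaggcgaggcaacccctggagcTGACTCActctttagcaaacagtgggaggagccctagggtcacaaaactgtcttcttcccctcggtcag
The match began at position -94 from the start site of *Serpinb2* and at -69 from that of *Plaur*. The *Serpinb2* window of this start site also held TATAAA at -29, found in 13.6% of all windows. In a second *Serpinb2* window, from another start site, the AP-1 letters lay at -181 and TATAAA at -116. *Plaur* held AGGAAG at -130 and at 16, and *Serpine2* at -25, beside 35.4% of all windows, and none of the 3 genes' windows held TGACGTCA, which 1.79% of all windows did. A match of letters is a description and not a binding site.

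Counts summed over a plate lay between 108357282 and 188636940, and cells with fewer than 100000 counts numbered 2 in CA-ERBB2 and 33 in Control (23 of plate 2 and 10 of plate 3). *Erbb2*, the gene of the transgene, was at 106, 46.1 and 120 CPM on the CA-ERBB2 plates and at 19.8, 3.24 and 12.4 CPM on the Control plates. CPM are a gene's counts relative to all counts of the library, which for plates was scaled by TMM. The wells A12 to D12 stood apart by the number of genes detected, with medians of 14340 genes in the 6 of these wells with *Serpinb2*, 17310 in the other 6 CA-ERBB2 wells and 15540 in the 12 Control wells, against 3229 to 4660 elsewhere. Whether these wells held more than 1 cell is not given in the sources used here and was not tested. They are counted as cells below, and most results that rest on them are given with and without them. The correlations between genes used all wells. Across the 21416 genes tested with edgeR, 1 gene was past an adjusted p of 0.05 and a log2 fold change of 1 (0.00467% of the genes tested). This was *Serpinb2*, and since the same contrast chose it, nothing is read from that count. No gene was called lower in edgeR, beside 512 lower at an unadjusted p below 0.05 and 131 called lower by DESeq2. In edgeR 0 genes were called when Control plate 1 or Control plate 3 was left out. At an unadjusted p below 0.05 edgeR then held 1503 and 1189 genes. The plates of both genotypes did not overlap for 900 genes higher (4.2%) and 1046 genes lower (4.88%) in CA-ERBB2.

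Of the inhibitors, *Serpinb2* was at 82.3, 83.7 and 353 CPM on CA-ERBB2 plates 1 to 3 and at 0, 0 and 0.00827 CPM on the Control plates. All 3 CA-ERBB2 plates lay above all 3 Control plates, and CA-ERBB2 plate 3 was the highest. In counts, 61493 of 460173816 fell on *Serpinb2* in CA-ERBB2 and 1 of 415192549 in Control, a ratio of 55480 with an exact 95% interval of 9958 to 2191000 that covers counting error only. These counts came from few cells, and reads were counted without molecular identifiers. The interval therefore says nothing of the number of molecules or of the spread between cells or plates. *Serpinb2* was detected, with at least 1 count, in 3, 3 and 12 of 59 cells on the CA-ERBB2 plates, 18 in all (10.2%, exact binomial 95% interval 6.14 to 15.6%). It was detected in 0, 0 and 1 of 59 cells on the Control plates, 1 in all (0.565%, interval 0.0143 to 3.11%).

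The level among the 18 cells ran from 0.219 to 3401 CPM with a median of 715. On plate 1 the 3 cells held 451, 2635 and 3401 CPM, and on plate 2 the 3 cells held 172, 781 and 1610 CPM. On plate 3 the 12 cells ran from 0.219 to 2417 CPM with a median of 478. The ranges of the 3 plates overlapped, and plate 3, which had the most cells with *Serpinb2*, had the lowest median level per cell. Of the 18 cells, 16 reached 10 CPM, and the other 2, both on plate 3, held 1 count each. The only Control cell with *Serpinb2* also held 1 count, at 0.349 CPM, and carried 1368 CPM of *Spp1* with no count of *Timp1*, *Mmp9* or *Dmp1*. With each cell thinned to 100000 counts, which left out the shallower cells, *Serpinb2* was found in 16 of 175 CA-ERBB2 cells and in 0 of 144 Control cells, where 3 cells would be 2.08%.

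**Figure D1:**
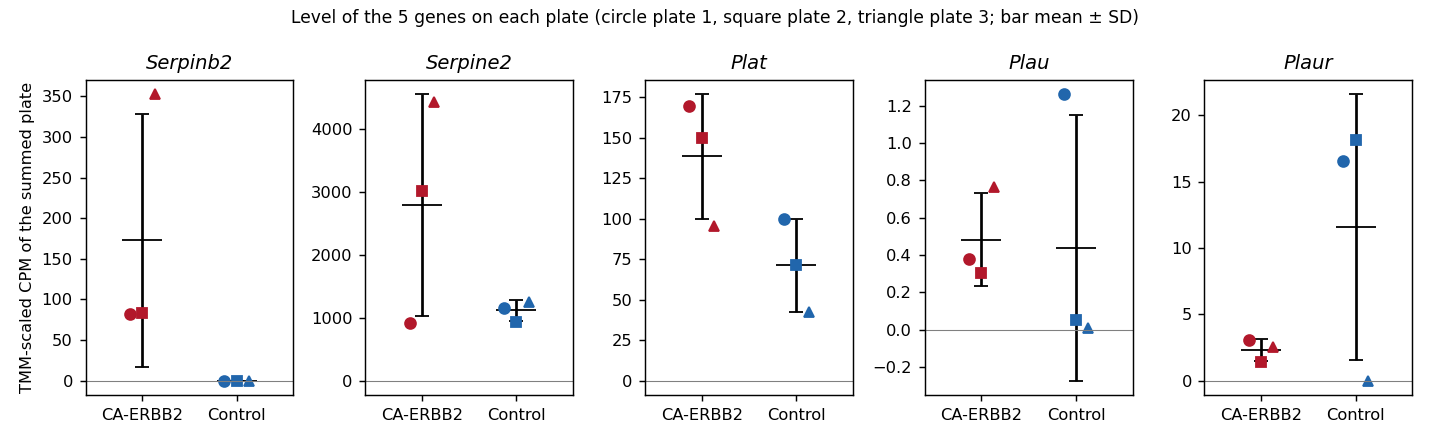
TMM-scaled CPM (vertical axes, linear, one per gene) of the 5 genes on the 3 plates of CA-ERBB2 (red) and of Control (blue), with the mean ± SD as a line and bar. The *Serpinb2* plates did not overlap between genotypes, while those of the other 4 genes did.

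*Serpine2*, the other inhibitor, was at 921, 3013 and 4442 CPM on the CA-ERBB2 plates and at 1159, 936 and 1256 CPM on the Control plates. The study also listed this gene among its markers of Deiters cells and of outer pillar cells. It was not counted in the marker lists used below. CA-ERBB2 plates 2 and 3 lay above all Control plates and CA-ERBB2 plate 1 below them. The log2 fold change was 1.32 ± 0.61 (SE), with an unadjusted p of 0.0542 and an adjusted p of 0.911 over all genes tested, both from edgeR. The gene was not called. *Serpine2* was detected in 54, 42 and 36 of 59 cells on the CA-ERBB2 plates (74.6% ± 15.5, SD, n = 3 plates). On the Control plates it was detected in 52, 29 and 29 cells (62.1% ± 22.5). A two-sided exact permutation test of the plates gave p = 0.5 for the difference in share, where 3 plates against 3 cannot give less than 0.1. The difference of 12.4 percentage points was 5.48 with cells thinned to 100000 counts, 0.0295 with only cells of at least 100000 counts and under 20% mitochondrial counts, and 3.96 to 25.4 with a plate left out. Its level in single cells with a count reached 48910 CPM in CA-ERBB2 and 10010 CPM in Control, and the 5 cells with the most counts gave 51.2% and 49.3% of the sums of CA-ERBB2 plates 2 and 3 and 27.1% of that of plate 1.

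**Figure D2:**
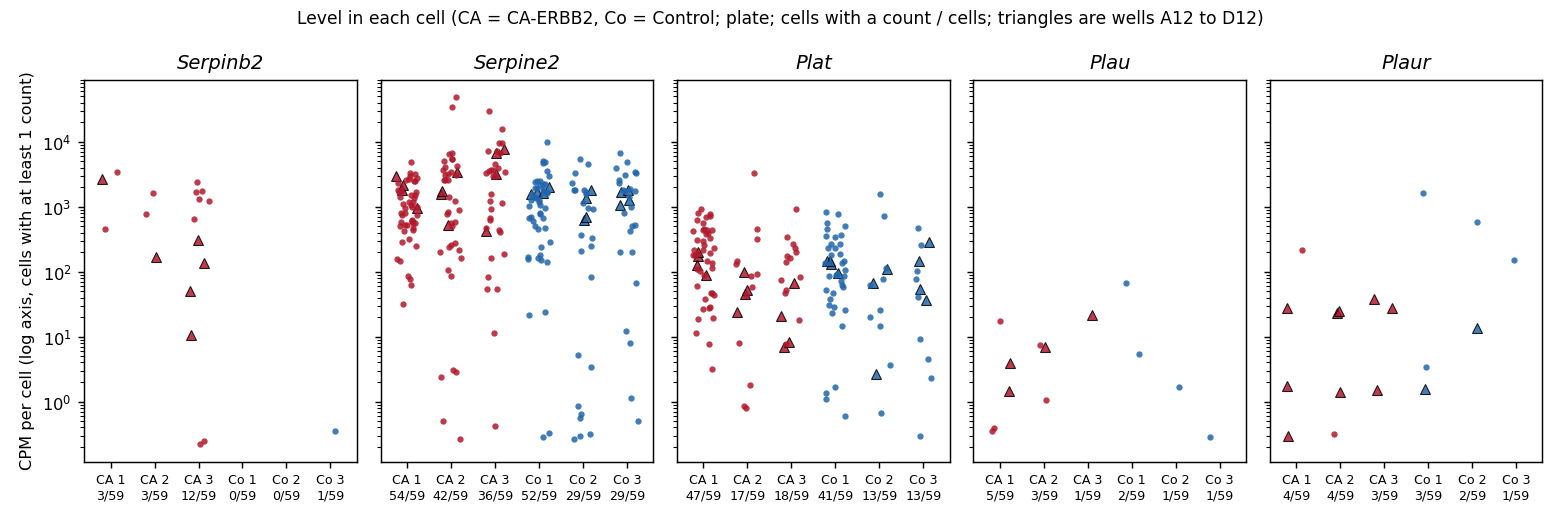
CPM of the 5 genes in each cell with a count (vertical axis, log scale), by genotype and plate, with triangles for the wells A12 to D12 and the number of cells with a count beneath each plate. *Serpinb2* was found in 18 CA-ERBB2 cells and 1 Control cell, whereas *Plaur* lay in few cells of both genotypes, with the highest value of 1623 CPM in a Control cell.

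Of the activators, *Plat* was the more abundant. It was at 170, 150 and 95.6 CPM on the CA-ERBB2 plates and at 99.8, 71.5 and 42.2 CPM on the Control plates. The plates overlapped, since CA-ERBB2 plate 3 lay below Control plate 1. Between plates of the same number CA-ERBB2 was the higher each time. With the plate number as a block the log2 fold change was 1.01, with an adjusted p of 0.989 from edgeR. The log2 fold change was 0.96 ± 0.52 (SE), with an adjusted p of 0.911 from edgeR. *Plat* was detected in 47, 17 and 18 cells on the CA-ERBB2 plates and in 41, 13 and 13 on the Control plates, 46.3% ± 28.9 against 37.9% ± 27.4 (SD, n = 3 plates, exact permutation p = 0.5). The permutation test did not pair plates by number. Plate 1 of both genotypes stood above plates 2 and 3, and it also had the most genes per cell, with a median of 10200 in CA-ERBB2 and 8679 in Control against 1742 to 2954 on the other plates. The difference in detection turned from 8.47 to -8.19 percentage points when CA-ERBB2 plate 1 was left out. One cell gave 75.6% of the *Plat* counts of CA-ERBB2 plate 2, and another gave 60.7% of those of Control plate 2.

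*Plau*, the urokinase gene, was close to the limit of what these cells showed. It was at 0.381, 0.302 and 0.765 CPM on the CA-ERBB2 plates and at 1.26, 0.0504 and 0.00827 CPM on the Control plates. The CA-ERBB2 plates lay inside the range of the Control plates. The log2 fold change was 0.13 ± 1.79 (SE), with an adjusted p of 0.995 from edgeR, and its sign was not settled by these plates, since it turned negative when CA-ERBB2 plate 3, Control plate 2 or Control plate 3 was left out (-0.34, -0.41 and -0.41). *Plau* was detected in 5, 3 and 1 cells on the CA-ERBB2 plates and in 2, 1 and 1 on the Control plates (5.08% ± 3.39 against 2.26% ± 0.979, exact permutation p = 0.4). The counts came to 197 in CA-ERBB2 and 307 in Control, and a single cell of Control plate 1, at 68.0 CPM, held 91.5% of the latter.

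*Plaur*, the urokinase receptor gene, was at 3.06, 1.41 and 2.52 CPM on the CA-ERBB2 plates and at 16.6, 18.1 and 0.00827 CPM on the Control plates. Control plates 1 and 2 lay above all CA-ERBB2 plates and Control plate 3 below them. The log2 fold change was -2.31 ± 1.66 (SE), with an adjusted p of 0.918 from edgeR. The sums and the shares of cells differed in direction: *Plaur* was found in 4, 4 and 3 CA-ERBB2 cells and in 3, 2 and 1 Control cells (6.21% ± 0.979 against 3.39% ± 1.69, exact permutation p = 0.2). That direction rested on the wells A12 to D12, since the difference of 2.83 percentage points was -1.21 without them. The 2 high Control sums each came from 1 cell. A cell of 1623 CPM gave 99.6% of the *Plaur* counts of Control plate 1, and a cell of 593 CPM gave 97.9% of those of Control plate 2. In CA-ERBB2 the highest cell held 214 CPM, and it was also the cell with the highest *Serpinb2*. The only count on Control plate 3 lay in a cell with 6619 counts in total.

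Levels of different genes were compared in TPM, a level per length over the exons of Gencode M21. In CA-ERBB2 the order was *Serpine2* (410 ± 129 TPM, SD, n = 3 plates), *Serpinb2* (93.7 ± 56.4), *Plat* (37.3 ± 28.6), *Plaur* (1.52 ± 1.28) and *Plau* (0.293 ± 0.138). *Serpinb2* and *Plat* were neighbours whose plates overlapped, with 39.5 to 152 TPM for *Serpinb2* and 15.5 to 69.7 TPM for *Plat*. The plates of *Serpine2* and *Serpinb2*, of *Plat* and *Plaur*, and of *Plaur* and *Plau* did not overlap. In Control the order was *Serpine2* (267 ± 80.3 TPM), *Plat* (24.1 ± 15.3), *Plaur* (9.53 ± 8.45), *Plau* (0.468 ± 0.773) and *Serpinb2* (0.00187 ± 0.00324). There, the plates of *Serpine2* stayed above those of *Plat*, and every other pair of neighbours overlapped. In both genotypes the transcripts of the inhibitor *Serpine2* thus stood above those of both activators, and the place of *Serpinb2* moved from the last to the second.

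Co-expression was described in the 18 CA-ERBB2 cells with *Serpinb2* beside the 159 CA-ERBB2 cells without it. *Serpine2* was detected in 18 of 18 cells with *Serpinb2* (exact 95% interval 81.5 to 100%) and in 114 of 159 without (71.7%, 64.0 to 78.5%). Its level in the 18 cells ran from 429 to 15910 CPM with a median of 3451, against a median of 474 in the 159 cells. By plate the medians with and without *Serpinb2* were 2616 and 781 CPM on plate 1, 1775 and 249 on plate 2 and 4256 and 0.423 on plate 3. The median was thus higher in the cells with *Serpinb2* on all 3 plates, although cells of up to 48910 CPM of *Serpine2* had no *Serpinb2*. Of the 18 cells, 16 held at least 100 CPM each of *Spp1*, *Timp1*, *Mmp9* and *Dmp1*, as did 20 of the 159. In all such cells the median of *Serpine2* was 2141, 3263 and 3321 CPM on plates 1 to 3. Whether *Serpine2* differed between such cells with and without *Serpinb2* was not tested. Outside the wells A12 to D12 *Serpine2* was detected in 12 of 12 cells with *Serpinb2*, with a median of 3877 CPM, and in 108 of 153 without, with a median of 440.

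*Plat* was detected in 12 of the 18 cells with *Serpinb2* (66.7%, 41.0 to 86.7%) and in 70 of the 159 without (44.0%, 36.2 to 52.1%). Outside the wells A12 to D12 the shares were 6 of 12 (50%) and 64 of 153 (41.8%). Across plates the pattern of *Plat* was mixed, with 2 of 3 cells on plate 1 against 45 of 56, 1 of 3 on plate 2 against 16 of 56, and 9 of 12 on plate 3 against 9 of 47. Where *Plat* was detected, its median was 59.3 CPM beside *Serpinb2* and 148 CPM in the other cells.

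*Plaur* was detected in 6 of the 18 cells with *Serpinb2* (33.3%, 13.3 to 59.0%) and in 5 of the 159 without (3.14%, 1.03 to 7.19%). *Plau* was detected in 3 of 18 (16.7%, 3.58 to 41.4%) and in 6 of 159 (3.77%, 1.40 to 8.03%). Both shares lay largely in the wells A12 to D12, which held 5 of the 6 cells with *Serpinb2* and *Plaur* and all 3 of those with *Serpinb2* and *Plau*. Outside these wells *Plaur* was found in 1 of 12 cells with *Serpinb2* (8.33%, 0.211 to 38.5%) and in 1 of 153 without, and *Plau* in 0 of 12 (interval up to 26.5%) and in 5 of 153. Within them *Plaur* was found in 5 of 6 cells with *Serpinb2* and in 4 of 6 without, and *Plau* in 3 of 6 and 1 of 6. The 1 cell outside the wells that held *Serpinb2* and *Plaur* was in well B6 of plate 1, with 3401 CPM of *Serpinb2*, 214 CPM of *Plaur*, 113 CPM of *Plat* and no *Plau*. Cells with *Serpinb2* had a median of 8426 genes against 3330 without, and the part of the number of genes in these shares was not tested.

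**Figure D3:**
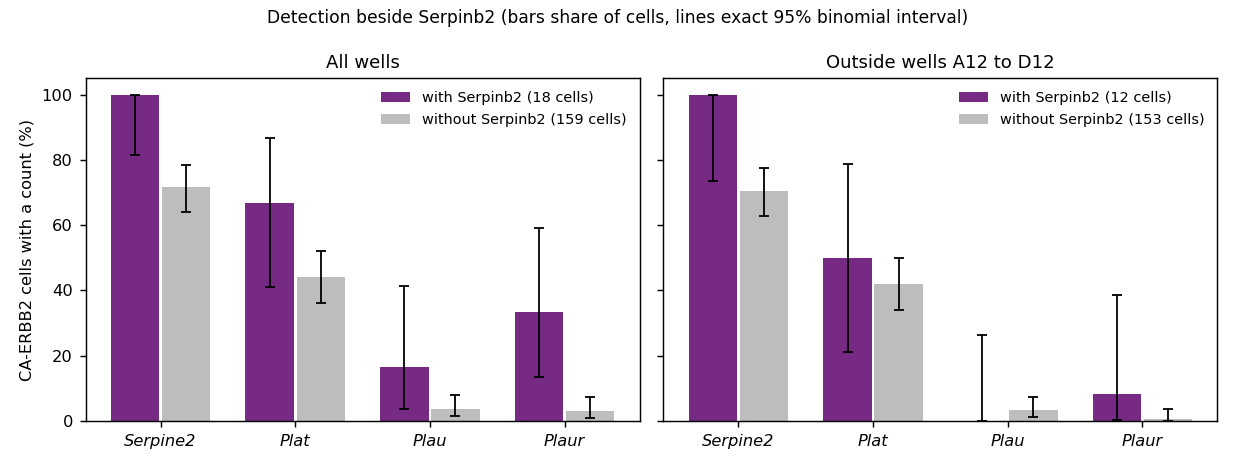
Share of CA-ERBB2 cells with a count of *Serpine2*, *Plat*, *Plau* or *Plaur* (vertical axis, percent) in cells with *Serpinb2* (purple) and without it (grey), in all wells and outside A12 to D12, with exact 95% binomial intervals. *Serpine2* was at 100% beside *Serpinb2* in both, while *Plaur* was at 33.3% with and 8.33% without those wells and *Plau* at 16.7% and 0.

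All 5 genes were found together in 3 wells, 1 on each plate and each among A12 to D12, where more than 1 cell in a well cannot be told apart from co-expression in 1 cell. *Serpinb2* and *Serpine2* without any count of *Plat*, *Plau* or *Plaur* were found in 6 of the 18 cells, all outside those wells. They were 1 of 3 cells on plate 1, 2 of 3 on plate 2 and 3 of 12 on plate 3. The urokinase gene and its receptor were together in 3 of 18 cells with *Serpinb2*, in 1 of 159 without it and in 1 Control cell. At least one activator was present in 12 of the 18 cells, 72 of the 159 and 70 of the Control cells, and *Plat* without *Plau* made up 9 of the 12.

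**Figure D4:**
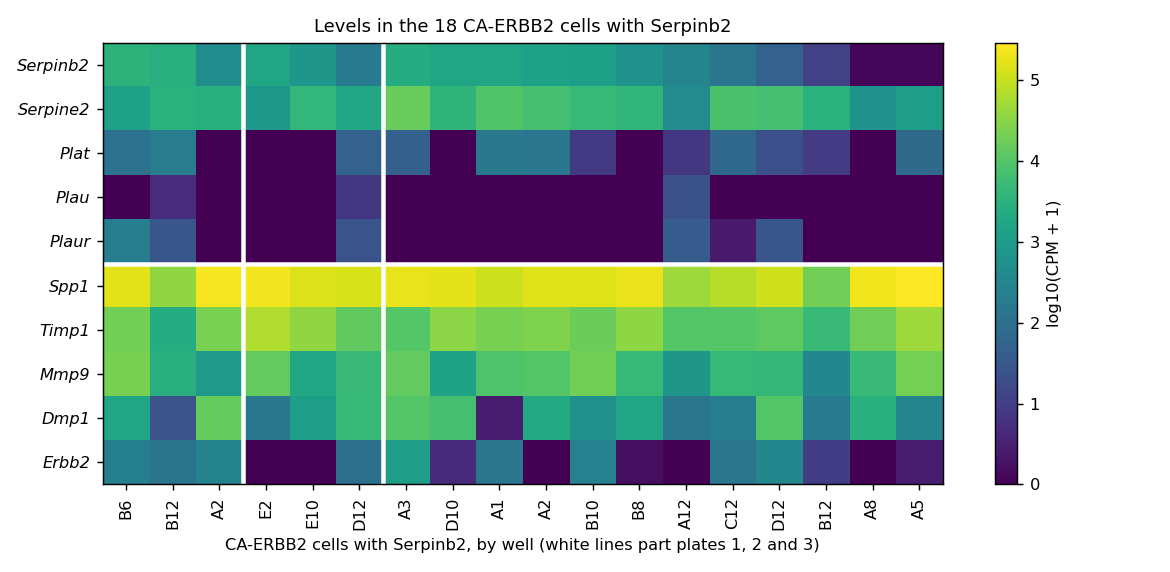
Levels, as log10(CPM + 1) by colour, of the 5 genes, of *Spp1*, *Timp1*, *Mmp9* and *Dmp1* and of *Erbb2* (rows) in each of the 18 CA-ERBB2 cells with *Serpinb2* (columns, named by well and ordered by *Serpinb2* within a plate). *Serpine2*, *Spp1*, *Timp1*, *Mmp9* and *Dmp1* were present in every cell, and *Plau* and *Plaur* in 3 and 6 of them.

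The GFP-positive sort can hold other cell types, and macrophages express *Plaur* and *Plau*. Of the 12 macrophage markers, *Ptprc*, *Csf1r*, *Cd68*, *Adgre1*, *Aif1*, *C1qa*, *C1qb*, *Tyrobp*, *Fcer1g*, *Lyz2*, *Itgam* and *Cx3cr1*, at least 3 were detected in 6 of the 18 cells with *Serpinb2*, in 18 of the 159 CA-ERBB2 cells without it and in 25 Control cells. Their summed level in the 18 cells ran from 0 to 11350 CPM with a median of 93.8. It reached 18540 CPM in the cells without *Serpinb2* and 31130 CPM in Control cells, both with a median of 0. Of those 6 cells, 5 were in the wells A12 to D12. Within these wells at least 3 markers were found in 5 of 6 cells with *Serpinb2*, 5 of 6 without it and 9 of 12 Control cells. Outside them the numbers were 1 of 12, 13 of 153 and 16 of 165. In the 12 cells with *Serpinb2* outside these wells *Ptprc*, *Adgre1*, *Aif1*, *C1qb*, *Tyrobp*, *Itgam* and *Cx3cr1* were at 0. There *Csf1r* was found in 5, *Cd68* and *Fcer1g* in 4 each and *C1qa* and *Lyz2* in 1 each, and the summed level ran from 0 to 932 CPM. Of the 17 cells of both genotypes with *Plaur*, 13 held at least 3 of the markers and 11 were in the wells A12 to D12, and of the 13 cells with *Plau*, 7 and 4. The Control cells of 1623 and 593 CPM of *Plaur* held 6 and 11 of the 12 markers, and the Control cell of 68.0 CPM of *Plau* held all 12. The part of these markers in the levels of *Plaur* and *Plau* was not tested.

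At least 3 of the 9 markers of pillar and Deiters cells were detected in 13 of the 18 cells with *Serpinb2*, in 73 of the 159 without it and in 75 Control cells. The summed levels had medians of 429, 449 and 266 CPM. In the 18 cells *Smagp* was found in 13, *S100a1* and *Cryab* in 12 each, *S100b* in 11, *Fgfr3* in 10, *Emid1* in 6, *Sox2* and *Prox1* in 5 each and *Hes5* in 3. In the 12 cells outside the wells A12 to D12 *Smagp* was found in 7, *S100a1* and *Cryab* in 6 each, *S100b* in 5, *Fgfr3* in 4, *Emid1* and *Prox1* in 1 each, and *Sox2* and *Hes5* in 0. In the 159 cells without *Serpinb2* these 9 were found in 29 (*Hes5*) to 87 (*S100b*), with 41 for *Sox2* and 48 for *Smagp*. The Control counts ran from 28 (*Hes5*) to 95 (*S100b*), with 49 for *Sox2* and 38 for *Smagp*. At least 3 of 8 markers of mesenchyme were found in all 18 cells, in 111 of 159 and in 102 Control cells. Their summed level had a median of 4134 CPM in the cells with *Serpinb2*, 2265 without and 1921 in Control. *Lum* was found in all 18, *Col1a1* and *Col1a2* in 17 each, *Col3a1* in 16, *Twist1* in 14, *Postn* in 12 and *Dcn* and *Pdgfra* in 10 each. Outside the wells A12 to D12 *Lum* was found in 12 of 12, *Col1a1* and *Col1a2* in 11, *Col3a1* in 10, *Twist1* in 8, *Postn* in 6 and *Dcn* and *Pdgfra* in 4 each. In the 159 cells without *Serpinb2* the counts ran from 39 (*Postn*) to 117 (*Col1a2*), with 86 for *Dcn*. Of 5 markers of keratinocytes, in which *Serpinb2* is also known to be expressed, *Krt5* and *Krt14* were at 0 in the 18 cells, *Krt10* was found in 13, *Krt17* in 5 and *Ivl* in 2. In the 159 cells without *Serpinb2* they were found in 0, 4, 69, 20 and 3, and in Control cells in 0, 0, 57, 3 and 0. Outside the wells A12 to D12 *Krt10* was found in 8 of the 12 cells with *Serpinb2* and the other 4 markers in none. At least 3 of 5 markers of the greater epithelial ridge were found in 8 of the 18 cells, 62 of the 159 and 53 Control cells. Their summed level had medians of 782, 341 and 302 CPM. *Itm2a* was found in 17 of the 18, *Epyc* in 10, *Tectb* in 9, *Calb1* in 4 and *Otoa* in 2. In the 12 outside these wells the numbers were 11, 4, 3, 1 and 1, and in the 159 they were 86, 84, 91, 25 and 26. The study used *Dcn*, counted here with mesenchyme, as a marker of lateral ridge cells. At least 3 markers were found in 4 of 18, 21 of 159 and 19 Control cells for hair cells. The numbers were 5, 22 and 27 for glia and 1, 4 and 9 for endothelium. At least 3 markers of the labelled cell type were thus found in part of the cells only, with *Serpinb2*, without it and in Control. The part of the mesenchymal and ridge genes in the levels above was not tested.

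The study named 4 genes as a network in CA-ERBB2 cells, *Spp1* (osteopontin), *Timp1* (an inhibitor of metalloproteinases), *Mmp9* (gelatinase B) and *Dmp1* (dentin matrix protein). The network was chosen on these same cells. Each of the 4 was detected in all 18 cells with *Serpinb2*, and in 122, 87, 56 and 45 of the 159 cells without it. Outside the wells A12 to D12 each was detected in all 12 cells with *Serpinb2*, and in 116, 81, 51 and 39 of 153 without. The medians in the 18 cells were 157100 CPM for *Spp1*, 19980 for *Timp1*, 4815 for *Mmp9* and 1379 for *Dmp1*. *Erbb2* was detected in 13 of 18 and in 69 of 159, and outside these wells in 8 of 12 and in 63 of 153. Of the 36 CA-ERBB2 cells with at least 100 CPM of all 4 genes, *Serpinb2* was found in 16 (44.4%, 27.9 to 61.9%), and in the other 141 cells in 2 (1.42%, 0.172 to 5.03%). By plate it was found in 2 of 3, 3 of 14 and 11 of 19 such cells. Outside the wells A12 to D12 the shares were 11 of 28 and 1 of 137. No Control cell reached 100 CPM of all 4 genes.

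The other members differed in how far they followed these cells. *Serpine2* was detected in 35 of the 36 cells with the network genes, 97 of the other 141 and 110 Control cells (62.1%), with medians of 3154, 317 and 161 CPM. On plates 2 and 3, where 14 and 19 of these cells lay, the median of *Serpine2* was 3263 and 3321 CPM in them, 87.2 and 0 in the other CA-ERBB2 cells and 0 in Control. On plate 1 it was 2141 CPM in the 3 such cells, 781 in the others and 1019 in Control. The Control medians include the cells with fewer than 100000 counts, 23 of 59 on plate 2 and 10 of 59 on plate 3. Among deeper cells, thinned to 100000 counts, *Serpine2* was detected in 22 of 36 and 27 of 49 Control cells of these plates. In all CA-ERBB2 cells it was then detected in 38 of 58 and 35 of 58. Outside the wells A12 to D12 *Serpine2* was found in 27 of 28 cells with the network genes and 93 of 137 others, with medians of 3233 and 262 CPM. *Plat* was found in 17 of 36 and 65 of 141 (47.2% and 46.1%), and outside these wells in 9 of 28 and 61 of 137 (32.1% and 44.5%). *Plaur* was found in 8 of 36 and 3 of 141, and outside these wells in 2 of 28 and 0 of 137. *Plau* was found in 4 of 36 and 5 of 141, and outside these wells in 1 of 28 and 4 of 137 (3.57% and 2.92%).

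A list of 41 genes of the wider system was drawn up, of which 31 were tested and 1 had no count. Without the 5 members, 26 of 36 genes were tested and none was called with edgeR, beside 5 at an unadjusted p below 0.05 and 2 called by DESeq2. The lowest adjusted p was 0.653. The plates did not overlap for 4 of the 26 genes higher and 2 lower in CA-ERBB2, beside 4.2% and 4.88% of all genes. The median log2 fold change of the 26 was 0.35, against -0.02 over all genes tested.

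Among the plasmin targets, *Mmp9* was at 404, 4081 and 5831 CPM on the CA-ERBB2 plates and at 21.5, 123 and 127 CPM on the Control plates (log2 fold change 5.24 ± 1.07, adjusted p = 0.653 in edgeR). It belongs to the network genes too. *Fn1*, which encodes fibronectin, was at 297, 716 and 445 CPM against 284, 131 and 275 (1.08 ± 0.53, adjusted p = 0.911). Both had all CA-ERBB2 plates above all Control plates. *Mmp9* was called by DESeq2 (adjusted p below 0.05) and in edgeR without the filter on low counts.

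Among receptors and cofactors, *Anxa2*, a plasminogen and tPA binding annexin, was at 439, 784 and 1346 CPM on the CA-ERBB2 plates and at 251, 227 and 395 on the Control plates (1.56 ± 0.55). Its partner *S100a10* was at 119, 714 and 843 against 104, 193 and 298 CPM, with plates that overlapped. *Mrc2*, a collagen receptor that associates with PLAUR, was at 32.6, 59.8 and 44.1 against 30.2, 7.99 and 7.91 CPM (1.56 ± 0.72). *Vtn*, which encodes vitronectin, a ligand of PLAUR, was at 1.85, 3.67 and 0.499 against 52.1, 203 and 11.6 CPM (-5.47 ± 1.18). The plates of *Vtn* did not overlap, and its counts came from 7 CA-ERBB2 and 18 Control cells. *Lrp1*, the endocytic receptor that clears complexes of activators with their inhibitors, was found in 104 CA-ERBB2 and 103 Control cells, at 272, 139 and 77.8 against 303, 132 and 154 CPM (-0.27 ± 0.58). With the filter on low counts none of these genes was called in edgeR (adjusted p of at least 0.774), while *Vtn* was called by DESeq2 and in edgeR without that filter.

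The substrate gene *Plg* was found in 6 CA-ERBB2 cells and 1 Control cell, at 0.393, 1.46 and 0.51 against 0, 0 and 0.463 CPM. *F12*, which encodes coagulation factor XII, was at 0.485, 0.0915 and 0 CPM against 5.16, 3.86 and 8.81 (-4.93 ± 1.85, adjusted p = 0.911 in edgeR), from 7 and 15 cells.

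**Figure D5:**
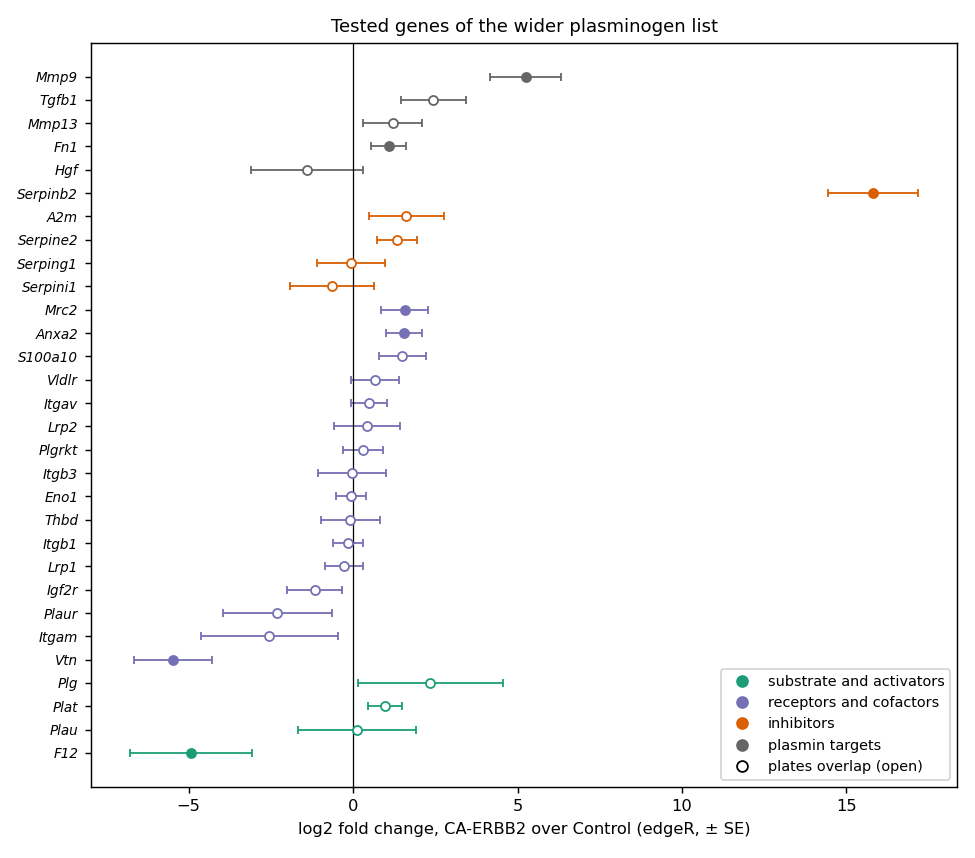
Log2 fold change of CA-ERBB2 over Control ± SE from edgeR (horizontal axis) of tested genes of the wider list, by role (colour), with filled points where the plates did not overlap. *Serpinb2* lies far to the right, at a fitted value that depends on the prior count since Control held 1 count, and *Mmp9*, *Vtn* and *F12* are the farthest of the others whose plates did not overlap.

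*Serpinb2* was the clade B serpin with the highest level in CA-ERBB2, followed by *Serpinb6a*, an intracellular serpin of the cochlea. *Serpinb6a* was at 26.5 ± 3.02 TPM in CA-ERBB2 and 35.0 ± 22.6 in Control (SD, n = 3 plates), where it was the highest. The plates of *Serpinb6a* overlapped between genotypes, and in CA-ERBB2 they lay below those of *Serpinb2*. Of 13 clade B serpins, 7 had enough counts to be tested.

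Genes whose level ran most like that of *Serpinb2* across the cells of a plate were sought by Spearman's rho of log2 CPM, averaged over the 3 CA-ERBB2 plates of 59 cells, among 15640 genes detected in at least 10% of CA-ERBB2 cells. The 8 highest were *Sstr2* (0.63), *Gm49249* (0.61), *Gm15894* (0.60), *F2rl3* (0.57), *Actg2* (0.56), *Fgf3* (0.56), *Il2rg* (0.55) and *Rem1* (0.54). *Sstr2* encodes a somatostatin receptor, *F2rl3* a protease-activated receptor and *Fgf3* a growth factor. *Sstr2* was detected in 15 and *Il2rg* in 16 of the 18 cells with *Serpinb2*. The network genes *Mmp9* and *Dmp1* had a mean of 0.45, *Serpine2* 0.32 and *Plat* 0.11. On single plates the values varied, for *Sstr2* between 0.40 and 0.79. The cells share their plate, their depth and the gene-rich wells, so these values are a description.

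For *Serpine2* the 3 highest were *Serpinh1* (0.52), which encodes the collagen chaperone HSP47, *Dmp1* (0.50) and *Lef1* (0.49), a transcription factor of Wnt signalling. For *Plat* they were *Tm9sf2* and *Angel2* (0.58 each) and *Clcn5* (0.57). For *Plaur* they were *Gm14493* (0.70), *Gm16541* (0.69) and *Il16* (0.66), and for *Plau* they were *Lcp1* and *Cubn* (0.54 each) and *Nap1l3* (0.46), values that rest on 11 and 9 cells with a count. On plate 3 only 3 cells held *Plaur* and 1 held *Plau*, all in the wells A12 to D12. There *Gm14493* and *Gm16541* had a rho of 1.0 with *Plaur*, and 0.35 each on plate 1. *Cubn* had 0.5, 0.11 and 1.0 with *Plau* on plates 1 to 3. *Lcp1* encodes a leukocyte plastin and *Il16* a leukocyte cytokine.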

How the data were processed

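GFP-positive cells of 2 genotypes were sorted singly and their libraries made with SMART-Seq Single PLUS, which reads full-length cDNA without molecular identifiers. The authors mapped the reads with STAR 2.7.6a to GRCm38 (Gencode M25) and counted them on exons by gene name and strand with featureCounts (Subread 2.0.1). The deposited values are raw counts, whole numbers for each gene in each cell. Counts were summed over the cells of each plate, taken as 1 FACS experiment, and compared by edgeR 4.0.16 under R 4.3.3 (TMM, filterByExpr, quasi-likelihood test, Benjamini-Hochberg adjustment over all 21416 genes, 3 plates against 3). This weights cells by their depth. The design names 3 sorts as independent, and p-values measure the spread between plates. Detection meant at least 1 count; its shares were compared over plates with two-sided exact permutation tests. Intervals are exact binomial or Poisson at 95% and cover counting error only. TPM used exon lengths of Gencode M21, an earlier release, which 53292 of the 55367 genes had. The edgeR step was tested on counts simulated from the fitted dispersions with 200 changed genes. It called 16% of the 8-fold and 60% of the 64-fold changes, and 5 of the 81 genes called were unchanged. A gene that was not called may therefore still differ. In counts simulated with no gene changed, the same step called 2 genes. The values reported used all cells, and no doublet caller was run on these sorted cells.

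The members, gene lists and markers were chosen with earlier results of these data known. Named beside the 5 members were up to 6 genes of the wider list with plates that did not overlap, by the smallest unadjusted p, then *Plg* and *Lrp1*, the 4 network genes, the 2 highest clade B serpins, and the genes most like each member (8 for *Serpinb2*, 3 for each other member). *S100a10* and *Erbb2* were named after their values were seen. Of the genes of the wider list, 1 counted in its totals is not reported here. Alternatives were DESeq2 1.42.0, upper quartile factors, no filter on low counts, the replicate number as a block, only cells with 100000 counts or more and less than 20% mitochondrial counts, each cell weighted equally with limma 3.58.1 on log2(mean CPM + 1), wells A12 to D12 left out, each plate left out, and for detection thinning to 100000 counts, at least 10 counts or at least 10 CPM.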

Additional observations from a re-analysis of the deposited data

How the results depend on the processing

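The count of called genes was 1 in edgeR and stayed at 1 with upper quartile factors, the filter on cells and without wells A12 to D12. It was 341 with DESeq2, 285 without the filter on low counts and 0 (616 genes at an unadjusted p below 0.05) with each cell weighted equally in limma, and 0 to 2 with a plate left out, where 0 came without Control plate 1 or 3 and 2 without CA-ERBB2 plate 1. For the wider list the count was 3 with DESeq2, 3 without the filter on low counts, 0 with each cell weighted equally and 0 to 1 with a plate left out. The fitted log2 fold change of *Serpinb2*, 15.81, was 17.73 with the filter on cells, 6.53 with each cell weighted equally, and 14.79 to 17.79 with a plate left out. The Control count it rests on is 1. *Plau* gave -0.41 to 4.00 with a plate left out, and was not tested without wells A12 to D12, where too few counts remained. The difference in detection of *Plaur* was -1.21 points without wells A12 to D12, and that of *Plat* -8.19 to 24.3 points with a plate left out. Beside *Serpinb2*, *Plaur* was found in 8.33% and *Plau* in 0 of the cells without wells A12 to D12. The cause of these changes was not tested. With the replicate number as a block, 1 gene was called and the log2 fold changes were 1.09 for *Serpine2*, 1.01 for *Plat*, -1.42 for *Plaur*, 2.38 for *Plau* and 15.74 for *Serpinb2*, and no call changed. Deviations of same-numbered plates correlated at 0.215, 0.082 and 0.077, not all above the 0.1 asked of a pairing, though each CA-ERBB2 plate correlated best with the Control plate of its number. Of 173 values under alternatives, 152 kept their direction and their side of the threshold, 16 moved and 5 changed sign. With 3 plates a side, shares in few cells and genes such as *Plau* are the least certain, and Control plates 2 and 3 hold nearly all shallow cells.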
